A study of Homo sapiens with 4 samples.

Results

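The unfolded protein and ATF4 stress response was followed in KM-H2, an established Hodgkin lymphoma cell line grown from pleural effusion cells. The 38 genes were taken from a fixed list and read through the platform's annotation, each at its brightest probe set assigned to a single gene, out of 19775 named genes. They fall into an ATF4 branch of 17 genes, 5 genes of the stress sensors and XBP1, and 16 genes of endoplasmic reticulum (ER) chaperones and ER-associated degradation (ERAD) that answer to ATF6 and XBP1. A filter on dim probe sets left 35 of the 38, namely 14 of the ATF4 branch, all 5 sensor genes and all 16 chaperone and ERAD genes, out of 12922 genes tested.

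Both groups were KM-H2 cells transduced with lentiviral vectors, 2 arrays per group. The control cells received a non-silencing vector, and the knockdown cells received a small hairpin RNA aimed at BX648577 exon 2 within the fusion transcript that joins BX648577 to CIITA, a coactivator that switches on HLA class II genes. A single hairpin and a single cell line were used, and the time after transduction is not stated. The labels do not say whether replicates were separate cultures. The p-values thus rest on the spread between these arrays alone, with each gene's variance drawn towards a value shared across genes. The comparison asked how expression differs once that fusion is targeted. At PIERCE2, the gene that BX648577 belongs to as general knowledge, the arrays gave 880 and 947 for control cells against 621 and 590 for knockdown cells (66.3% of control, log2 fold change -0.58, limma adjusted p = 9.74e-05 with an intensity trend and 0.252 with a common prior, both described below). CIITA gave 59.6 and 65.1 against 60.7 and 53.6, with overlap, and whether either probe set lies inside the fusion transcript was not examined.

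Protein folding stress in the ER is sensed by PERK (EIF2AK3), IRE1 (ERN1) and ATF6. PERK, and GCN2 (EIF2AK4) when amino acids run short, phosphorylate the translation factor eIF2, which slows protein synthesis while favouring translation of ATF4. ATF4 then induces genes of amino acid supply, redox balance and cell death, through C/EBP-ATF elements. IRE1 splices XBP1 mRNA, and XBP1 and cleaved ATF6 induce chaperones and ERAD factors through ER stress elements. Cells of the B lineage rely on this system when they secrete antibody, whereas Hodgkin cells have lost most of the B cell programme. Transcript levels report neither eIF2 phosphorylation nor, at a probe set not known to separate the forms, XBP1 splicing.

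Promoters of some members hold sequences that match the elements named above. RefSeq windows on GRCh38.p14, from 250 bases before to 50 bases after each annotated start, were at hand for 36 of the 38 members (PDIA3 and PSPH had none), and some genes have several starts. The C/EBP-ATF element was searched as TGATGNAAN, the ER stress element as CCAAT and CCACG separated by 9 bases, the second ER stress element as ATTGG and CCACG separated by 1 base, and the unfolded protein response element as TGACGTGG, all on both strands. The following stretches are shown because they hold the C/EBP-ATF element of ATF4 branch genes, which is in capitals and reads as its reverse complement in CHAC1.
ASNS, chr7:97872448-97872496, minus strand: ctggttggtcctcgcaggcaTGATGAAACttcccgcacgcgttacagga
ATF3, chr1:212565196-212565244, plus strand: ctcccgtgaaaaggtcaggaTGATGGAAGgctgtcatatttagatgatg
CHAC1, chr15:40953241-40953289, plus strand: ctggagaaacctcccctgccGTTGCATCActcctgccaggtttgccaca

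The element began 68 bases before the start of ASNS, 191 before that of ATF3 and 210 before that of CHAC1. CEBPG held it as well. That made 4 of the 16 ATF4 branch genes with a window (25%), against 1215 of 27305 genes of the annotation (4.45%), 1 of 15 chaperone and ERAD genes (HERPUD1) and 11 of 31 further ATF4 targets, GARS1 among them. Neither the ER stress element nor the second ER stress element was in any ATF4 branch window. A match is a description of letters and not a proven site, and the list was drawn from genes known as ATF4 targets.

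Some of the chaperone genes, and XBP1, carried the other element. In the stretches below, capitals mark the ER stress element, which reads as its reverse complement in CALR and CRELD2 and in the second stretch of HSP90B1.
HSPA5, chr9:125241371-125241429, minus strand: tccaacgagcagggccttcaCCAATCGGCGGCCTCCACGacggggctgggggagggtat
HSP90B1, chr12:103930196-103930254, plus strand: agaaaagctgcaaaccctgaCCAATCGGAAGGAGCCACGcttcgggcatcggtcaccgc
HSP90B1, chr12:103930301-103930359, plus strand: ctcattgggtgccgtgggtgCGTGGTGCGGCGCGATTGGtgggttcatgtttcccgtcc
CALR, chr19:12938364-12938422, plus strand: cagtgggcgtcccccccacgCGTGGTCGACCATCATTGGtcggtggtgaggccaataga
CRELD2, chr22:49918534-49918592, plus strand: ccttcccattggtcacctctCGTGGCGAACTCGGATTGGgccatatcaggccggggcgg
XBP1, chr22:28800583-28800641, minus strand: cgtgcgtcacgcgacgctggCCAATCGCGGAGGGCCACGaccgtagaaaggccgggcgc

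The ER stress element was present in 6 of 15 chaperone and ERAD genes with a window (40%), the other 2 being CANX and PDIA6, and in XBP1 itself, against 25 of 27305 genes (0.092%). In HSPA5 it began 66 bases before the start, and HSP90B1 held it at 194 and 89 bases. The list was drawn from genes known to answer to ATF6 and XBP1. Shares of either ER stress element thus describe the list and are no test. A further 3 members carried the second element, shown in capitals below (the reverse complement in HYOU1 and SDF2L1), which 19 of the 27305 genes (0.070%) hold.
HYOU1, chr11:119057360-119057410, minus strand: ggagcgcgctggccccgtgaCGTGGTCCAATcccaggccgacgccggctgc
SDF2L1, chr22:21642094-21642144, plus strand: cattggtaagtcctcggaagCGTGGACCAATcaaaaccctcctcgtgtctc
HERPUD1, chr16:56932005-56932055, plus strand: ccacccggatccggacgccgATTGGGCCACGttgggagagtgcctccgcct

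HYOU1 held this element again 79 bases before its start, and the copy printed above, at 185 bases, overlaps the only unfolded protein response element found in any member (253 of the 27305 genes hold that motif, 0.927%). The map of motif positions shows the 2 classes of element side by side.

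**Figure D1:**
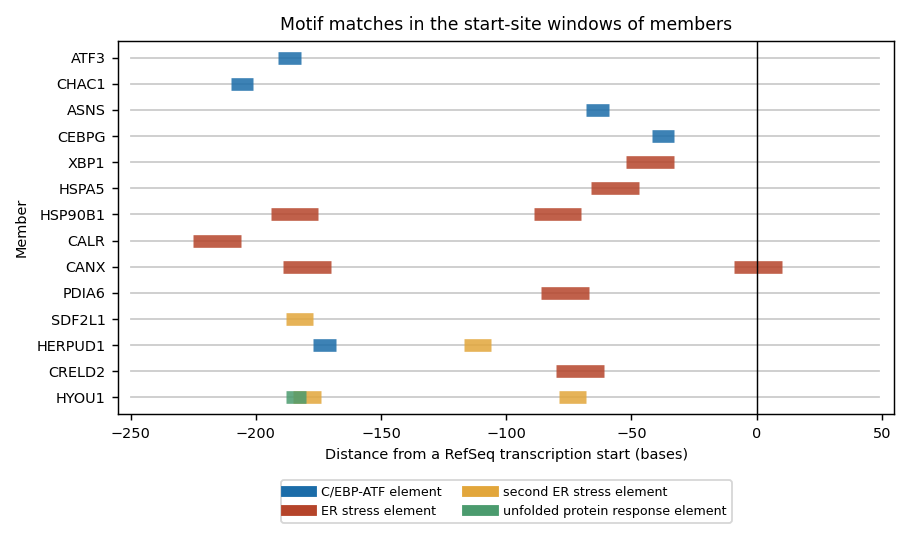
Matches of 4 motifs in windows around RefSeq starts of the members that hold any. The x axis is the distance from the start in bases, each grey line is 1 gene, and coloured blocks are matches. C/EBP-ATF elements lie in ASNS, ATF3, CEBPG, CHAC1 and HERPUD1, and ER stress elements of either form lie in 9 chaperone and ERAD genes and in XBP1. The CANX match is drawn against each of its starts and is 1 site.

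Levels below are deposited intensities, with mean ± SD over n = 2 arrays per group, and a fold change is the knockdown mean minus the control mean of log2(intensity + 16), a scale on which changes of dim probe sets come out too small. Calls were made with limma in 2 forms. The common-prior fit assumes 1 prior variance for all genes, and the intensity-trend fit lets it follow brightness. Both were run over all 12922 genes with Benjamini-Hochberg adjustment and a threshold of 0.05.

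Across the members, knockdown cells had less ATF4 and ASNS transcript and more HSPA5 transcript in the intensity-trend fit, and no other member was called. The common-prior fit called 0 of the 35 tested members, against 2 of all 12922 genes (0.0155%). At an unadjusted p below 0.05 in that fit, 4 members were lower (ATF4, ASNS, PSAT1 and DDIT3) and HSPA5 was higher, where 7.68% of all genes were lower and 6.41% higher. The intensity-trend fit called 2 members lower and 1 higher, against 1.4% of all tested genes lower and 1.59% higher (2.99% together). These shares rest on 3 genes.

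ATF4 encodes the factor at the head of its branch. It read 647 and 784 in control cells against 537 and 450 in knockdown cells. Both knockdown values lay below both controls, although the gap between the controls was larger than that between the lower control and the higher knockdown. The means were 715 ± 96.9 and 494 ± 61.7, so that knockdown cells had 69.0% of the control signal. The log2 fold change was -0.52 (SE 0.09, 95% interval -0.71 to -0.33, adjusted p = 0.00482 in the intensity-trend fit and 0.255 in the common-prior fit). The array has a single one-gene probe set for ATF4. In RNA from a whole culture, fewer cells with a transcript and less of it per cell cannot be told apart. Without control replicate 2 the log2 fold change was -0.38 and the intensity-trend adjusted p 0.0702.

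ASNS makes asparagine and is a long-known ATF4 target. Its probe set gave 526 and 486 in control cells against 421 and 382 in knockdown cells. The groups did not overlap, and here control replicate 1 was the brighter control. Means were 506 ± 28.6 and 401 ± 27.5, with a log2 fold change of -0.32 (SE 0.07, intensity-trend adjusted p = 0.0262, common-prior 0.288). The call was lost without control replicate 1 (adjusted p = 0.114), control replicate 2 (0.0526) or knockdown replicate 2 (0.219), with log2 fold changes from -0.38 to -0.26.

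Serine synthesis enzymes did not share 1 pattern. PSAT1, the transaminase of the pathway, read 275 and 342 in the controls against 248 and 237 in the knockdowns. Its knockdown values lay below both controls, yet it missed the threshold with a log2 fold change of -0.32 (95% interval -0.51 to -0.13, intensity-trend adjusted p = 0.0696). Without control replicate 1 it was -0.47 and called (intensity-trend adjusted p = 0.0198), and without control replicate 2 it was -0.17 (0.362). A dimmer PSAT1 probe set gave 54.7 and 41.3 against 29.98 and 36.0 (-0.38). The phosphatase PSPH read 217 and 224 against 226 and 222 (0.02), with all 4 arrays within a narrow band. Its second probe set, however, gave 134 and 135 in control cells against 111 and 112 in knockdown cells (-0.24, intensity-trend adjusted p = 0.202 with every probe set tested), so the PSPH probe sets disagree. PHGDH, the first enzyme of the pathway, was dim and scattered, at 2.99 and 13.97 against 10.6 and 7.52.

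Among the stress effectors, DDIT3 encodes CHOP, a factor that promotes cell death under lasting stress. It read 42.8 and 49.3 in control cells against 33.7 and 37.0 in knockdown cells. These groups did not overlap, but the log2 fold change of -0.27 was not called (adjusted p = 0.269 in the intensity-trend fit and 0.336 in the common-prior fit). SESN2, a stress-induced inhibitor of mTORC1, read 48.9 and 66.3 against 39.4 and 50.1 (-0.27, intensity-trend adjusted p = 0.314), and its groups overlapped. DDIT4, another mTORC1 inhibitor that also responds to low oxygen, read 964 and 1176 against 900 and 1029 (-0.14, intensity-trend adjusted p = 0.388), again with overlap.

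TRIB3, a pseudokinase induced by ATF4 and CHOP that restrains ATF4 in turn, lay on the opposite side. It read 94.3 and 129 in control cells against 131 and 147 in knockdown cells. The groups were separated by a small margin, with control replicate 1 far below the rest. The log2 fold change was 0.29 (95% interval 0.05 to 0.54, intensity-trend adjusted p = 0.184). Its dimmer probe set gave 0.22. Single control arrays decided the value, which was 0.49 and called without control replicate 2 (intensity-trend adjusted p = 0.0492) and 0.10 without control replicate 1 (0.676).

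The remaining regulators of the branch gave no call. ATF3, a stress-induced repressor, stood at 257.2 ± 24.5 and 259.2 ± 2.02 (0.01, 95% interval -0.16 to 0.19). ATF5, which is translated under stress much as ATF4 is, stood at 23.8 in both groups. CEBPB and CEBPG, C/EBP partners of ATF4, gave -0.03 and -0.12, and PPP1R15A, which encodes the GADD34 subunit that returns eIF2 to its active state, gave 0.01. Their intensity-trend adjusted p values ran from 0.624 to 1.00, and their groups overlapped. Of the 3 members below the filter, CHAC1, which degrades glutathione, read 3.05 and 3.70 against 7.51 and 2.68, and VLDLR, a lipoprotein receptor, 5.23 and 9.65 against 9.17 and 7.17. The secreted glycoprotein gene STC2 read 8.43 and 11.2 against 2.78 and 4.09, the only one of these 3 with separate groups, near the floor of the data and not tested.

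**Figure D2:**
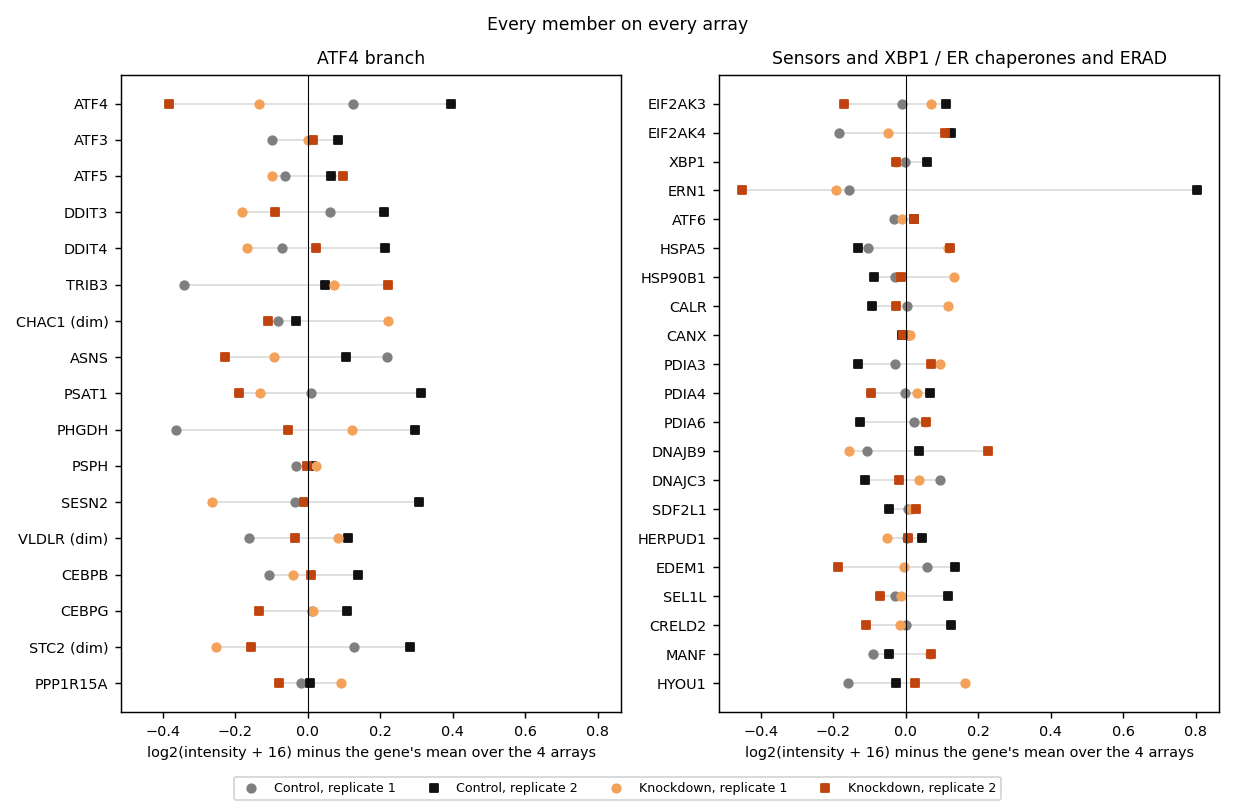
Every member on every array. The x axis is log2(intensity + 16) minus the gene's mean over the 4 arrays, grey and black symbols are the 2 controls, and orange and red symbols are the 2 knockdowns. ATF4 and ASNS separate with both knockdowns on the left and HSPA5 with both on the right, while control replicate 2 (black squares) lies to the right of control replicate 1 for 13 of the 14 tested ATF4 branch genes. Members marked dim were below the filter.

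The sensor genes and XBP1 gave no call. EIF2AK3, which encodes PERK, stood at 87.1 ± 6.24 and 80.4 ± 11.3 (-0.10), and EIF2AK4, which encodes GCN2, at 57.7 ± 11.1 and 60.4 ± 5.79 (0.06). A dim second EIF2AK4 probe set read 4.96 and 6.8 against 15.05 and 11.94 (0.43). It was not called either (intensity-trend adjusted p = 0.203 with every probe set tested). ATF6 stood at 72.9 ± 2.37 and 73.5 ± 1.49 (0.01, 95% interval -0.21 to 0.23), and its other 3 probe sets gave 0.06, 0.18 and 0.24. XBP1 read 97.3 and 102 against 95.5 and 95.5 (-0.06), a separation smaller than the gap between the controls. ERN1, which encodes IRE1, had the lowest log2 fold change of the tested members, at -0.65 (95% interval -1.10 to -0.19). That value came from a single array, since ERN1 read 22.7 and 59.2 in control cells against 21.7 and 15.5 in knockdown cells. It was not called (intensity-trend adjusted p = 0.118, common-prior 0.369), its dimmer probe sets gave 0.10 and 0.07, and without control replicate 2 the value was -0.17 (intensity-trend adjusted p = 0.676). Without control replicate 1, which leaves the bright array as the lone control, the value was -1.13 (intensity-trend adjusted p = 0.00470), and without knockdown replicate 1 it was -0.77 (0.00642).

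HSPA5 encodes BiP, the main ER chaperone and the repressor of all 3 stress sensors. It read 820 and 805 in control cells against 960 and 962 in knockdown cells. Arrays within a group differed far less than the groups did. The means were 813 ± 10.7 and 961 ± 1.86, or 118% of the control signal, with a log2 fold change of 0.24 (SE 0.06, 95% interval 0.11 to 0.36, intensity-trend adjusted p = 0.0373, common-prior 0.348). The call did not survive leaving out any single array (intensity-trend adjusted p from 0.0760 to 0.173, with log2 fold changes from 0.22 to 0.25). A far dimmer HSPA5 probe set read 38.6 and 40.4 against 41.2 and 33.1 (-0.07).

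Several partners of BiP stood on the same side without a call. HYOU1, a nucleotide exchange factor for BiP, read 242 and 267 in control cells against 307 and 278 in knockdown cells (0.19, 95% interval 0.02 to 0.36, intensity-trend adjusted p = 0.243). MANF, a secreted protein that binds BiP, read 324 and 335 against 364 and 365 (0.14, intensity-trend adjusted p = 0.353). HSP90B1, the ER form of HSP90, read 323 and 310 against 364 and 328 (0.12). In these 3 genes both knockdown arrays lay above both controls, as they did for 22.7% of all tested genes. Other partners of BiP, DNAJB9 and DNAJC3, had groups that overlapped (0.07 and 0.02). A dim HSP90B1 probe set, at 11.7 and 10.6 against 24.7 and 26.9, gave 0.62 and was called when every probe set was tested (intensity-trend adjusted p = 0.0359). Probes of both HSP90B1 sets may also bind similar sequences elsewhere, which leaves the HSP90B1 values uncertain. The same limit holds for the probe sets read for CALR, and for SLC38A2 and SRPRB among the further genes below. It also holds for the dimmer PDIA6 probe sets with log2 fold changes of 0.12 and 0.06.

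Protein disulfide isomerases and lectin chaperones were mixed. PDIA3, the isomerase that works with the lectin chaperones, read 492 and 457 against 538 and 528 (0.16, 95% interval 0.02 to 0.31, intensity-trend adjusted p = 0.224), and its dimmer probe sets gave 0.32 and 0.17. PDIA6 read 412 and 370 against 421 and 422 (0.11), with 0.12, 0.06 and 0.29 at its other probe sets. PDIA4 gave -0.07. CALR, calreticulin, stood at 208 ± 10.4 and 223 ± 16.6 (0.09), with overlap. CANX, calnexin, read 1379 and 1363 against 1384 and 1364 (0.00, 95% interval -0.11 to 0.12), though a dimmer CANX probe set read 138 and 148 against 177 and 173 (0.27, intensity-trend adjusted p = 0.133).

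At their brightest probe sets the co-chaperones lay slightly above 0, and the ERAD genes and CRELD2 below it, none with a call. DNAJB9 and DNAJC3, J proteins of BiP, gave 0.07 and 0.02, and SDF2L1, a partner of ER J proteins, gave 0.04. HERPUD1, a membrane organiser of ERAD that held a C/EBP-ATF element besides its second ER stress element, gave -0.05. The ERAD lectin gene EDEM1 read 62.3 and 66.6 against 58.9 and 50.01 (-0.19, intensity-trend adjusted p = 0.414), and CRELD2, an ER stress-inducible protein, 74.5 and 82.6 against 73.3 and 67.9 (-0.13). Both were below in each knockdown array. SEL1L, the scaffold of the HRD1 ubiquitin ligase, gave -0.08.

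**Figure D3:**
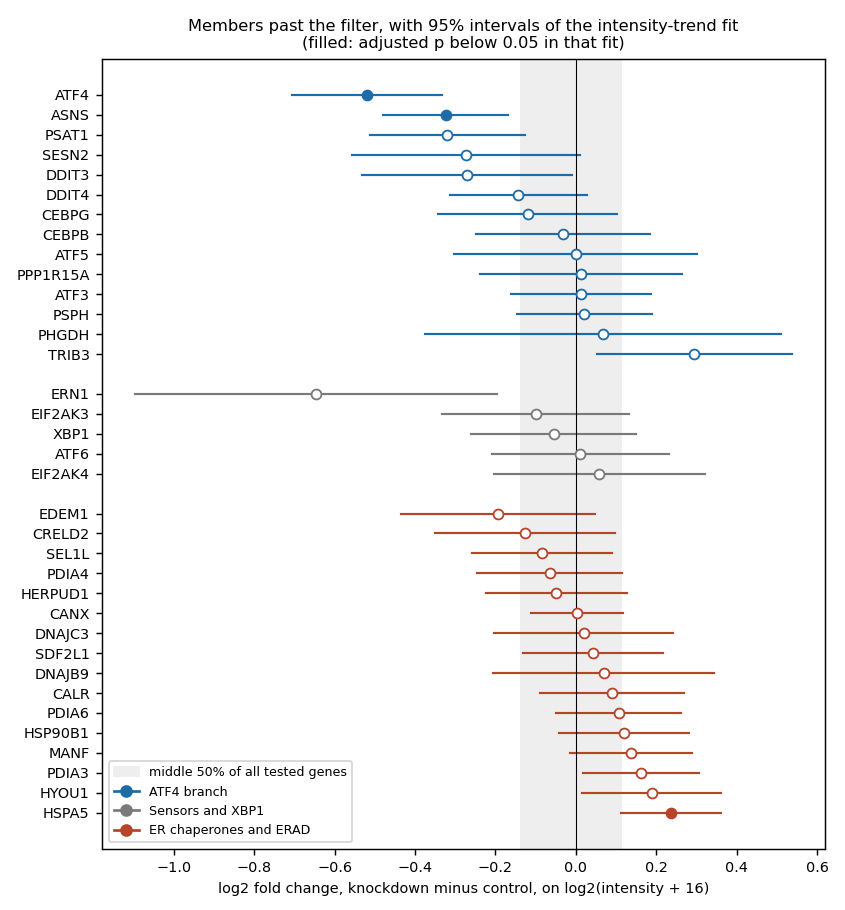
Fold change of the 35 tested members in log2 units of (intensity + 16), as knockdown less control, with 95% intervals of the intensity-trend fit. Blue is the ATF4 branch, grey the sensors and XBP1, red the chaperones and ERAD, and the shaded band is the middle 50% of all tested genes (-0.14 to 0.11). Filled symbols passed that fit: ATF4 at -0.52, ASNS at -0.32 and HSPA5 at 0.24.

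Set side by side, 9 of 14 ATF4 branch genes lay below 0 and 11 of 16 chaperone and ERAD genes above 0. The medians were -0.08 (quartiles -0.27 and 0.01) and 0.06 (quartiles -0.05 and 0.12), where all tested genes had a median of -0.01 with 47.5% above 0. With each array centred on its median, 7 of 14 ATF4 branch genes lay below 0 (median -0.02) and 12 of 16 chaperone and ERAD genes above (median 0.11), while the median of all genes moved to 0.05. Both knockdown arrays were below both controls for 4 of 14 ATF4 branch genes (28.6%) and 2 of 16 chaperone and ERAD genes, against 24.5% of all tested genes. They were above both controls for 1 of 14 and for 7 of 16 (43.8%), against 22.7% of all genes. Over all 35 tested members, 8 were below and 8 above (22.9% each). The branches were named for contrast with earlier results of these data in view, so these counts describe the arrays and no test was made between them.

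The contrast depended on control replicate 2. Its ATF4 branch genes were brighter than those of control replicate 1 by a median of 0.22 on the log2 scale, in 13 of 14 genes, where 46.8% of all tested genes were brighter. Between the knockdowns the branch differed by a median of 0.01. The median of the ATF4 branch minus that of the chaperones was -0.03 and 0.16 in control cells against -0.10 and -0.03 in knockdown cells, each taken as deviations from a gene's 4-array mean. The values of control replicate 1 and knockdown replicate 2 were thus alike to 2 decimals. Without control replicate 2 the ATF4 branch had a median of 0.01, with 7 of 14 genes below 0, and without control replicate 1 it had -0.21, with 12 of 14 below.

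Control replicate 2 was also the brighter control for all 5 genes of the sensors and XBP1, with a median difference of -0.12 (replicate 1 minus replicate 2). The same array stood apart in a list of hypoxia and glycolysis genes, whose median difference between the controls was -0.27 (replicate 1 minus replicate 2) and whose median log2 fold change was -0.18 over 20 tested genes. Of these, 4 were called lower in the intensity-trend fit (PDK1, BNIP3, PFKFB3 and INSIG2), against 1.4% of all tested genes, and 0 in the common-prior fit. At an unadjusted p below 0.05 in the common-prior fit, 4 were lower and 0 higher, against 7.68% and 6.41% of all genes. The part of these genes in the ATF4 branch values was not tested.

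**Figure D4:**
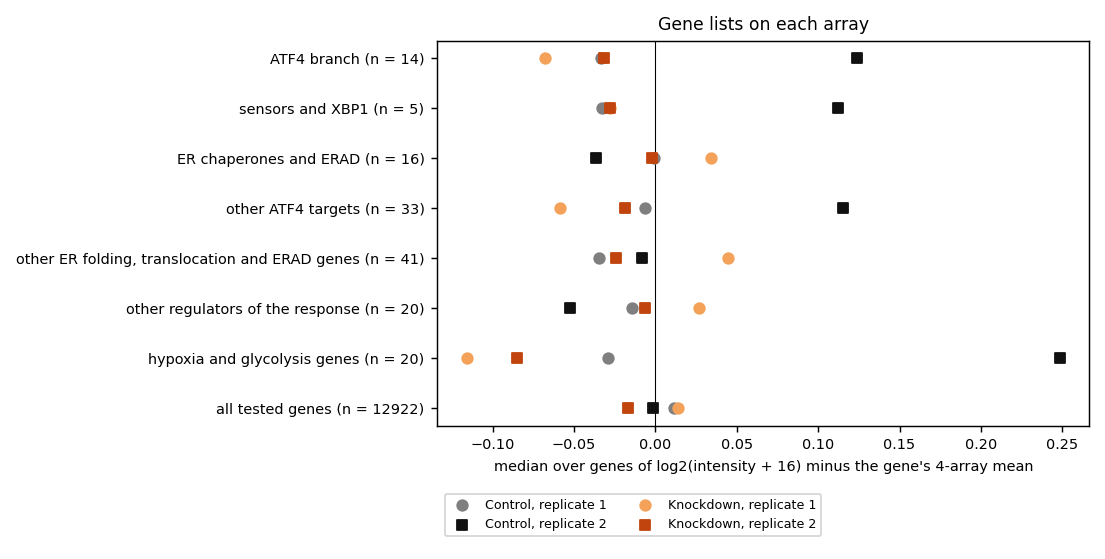
Median deviation of gene lists on each array. The x axis is the median over a list's tested genes of log2(intensity + 16) minus the gene's mean over 4 arrays, with symbols as in the plot of every member. Control replicate 2 (black squares) lies at 0.12 for the ATF4 branch, 0.11 for the sensors and XBP1, and 0.12 for other ATF4 targets. It lies at 0.25 for hypoxia and glycolysis genes and at -0.04 for the chaperones. All tested genes lie between -0.02 and 0.01.

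Among 33 tested further ATF4 targets, 23 lay below 0 (69.7%, against 52.5% of all tested genes), with a median of -0.11. The intensity-trend fit called 3 of them, all lower, against 1.4% of all genes, and the common-prior fit called 0. At an unadjusted p below 0.05 in the common-prior fit, 3 were lower and 1 higher, against 7.68% and 6.41% of all genes. SLC7A11, the cystine transporter of the glutathione pathway, read 44.1 and 63.2 in control cells against 26.9 and 30.7 in knockdown cells (-0.62, SE 0.14, intensity-trend adjusted p = 0.0244). Its second probe set agreed in direction, at 34.7 and 49.4 against 20.5 and 18.9 (-0.69). SLC38A2, an amino acid transporter of the SNAT family, read 388 and 450 against 308 and 343 (-0.35, intensity-trend adjusted p = 0.0319). GARS1, glycyl-tRNA synthetase, read 335 and 352 against 275 and 273 (-0.31, intensity-trend adjusted p = 0.0338). CBS, a transsulfuration enzyme, read 5.49 and 2.83 in the controls and 2.23 in knockdown replicate 1, but 94.0 in knockdown replicate 2, and was singled out after its values were seen. In this list too control replicate 2 was the brighter control, for 24 of 33 genes.

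The 41 further ER folding, translocation and ERAD genes split evenly, with 22 above 0 and a median of 0.01. The intensity-trend fit called 2 of the 41 higher and none lower, against 1.59% and 1.4% of all tested genes. The common-prior fit called 0, while an unadjusted p below 0.05 was reached by 3 on the higher side and 1 on the lower, against 6.41% and 7.68% of all genes. SRPRB, the membrane subunit of the signal recognition particle receptor, read 183 and 206 in control cells against 261 and 248 in knockdown cells (0.36, intensity-trend adjusted p = 0.0284). MYDGF, a secreted factor that passes through the ER, read 124 and 118 against 159 and 159 (0.35, intensity-trend adjusted p = 0.0418). Of 20 other regulators of the response none was called in either fit. An unadjusted p below 0.05 in the common-prior fit was reached by 3 of the 20 on the higher side and 2 on the lower. The shares of all genes were 6.41% and 7.68%. The protease gene MBTPS1, whose product cleaves ATF6, read 202 and 151 against 142 and 110 (-0.43, intensity-trend adjusted p = 0.0628), and EIF2B3, a subunit of the exchange factor of eIF2, read 58.8 and 41.8 against 72.9 and 64.6 (0.36).

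Probe sets of the same gene offer a further check on the members. Beyond the brightest, 35 probe sets of 21 members passed the filter, and 23 of the 35 lay on the same side of 0 as the brightest. Members with a probe set on the other side included ATF3, PSPH, DNAJB9 and SEL1L, whose brightest sets lay near 0, and also HSPA5 and ERN1. ASNS has no second probe set past the filter. With the mean of all of a gene's probe sets, the intensity-trend fit called no member, and 23 of all genes in place of 387. ATF4, with 1 one-gene probe set, kept its log2 fold change of -0.52 there. Its intensity-trend adjusted p of 0.126 is thus no probe set check on ATF4.

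**Figure D5:**
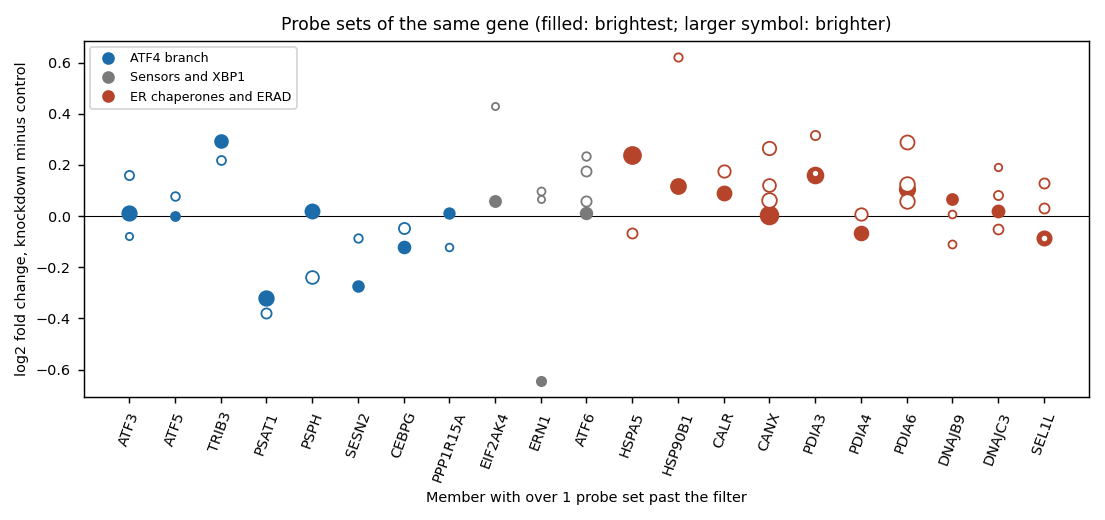
Log2 fold change, knockdown minus control, of each probe set past the filter for the 21 members that have over 1. Filled symbols are the brightest probe set, larger symbols are brighter, and colours give the branch. PSAT1 and TRIB3 keep their side, while PSPH (0.02 and -0.24), HSPA5 (0.24 and -0.07) and ERN1 (-0.65, 0.10 and 0.07) do not.

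As context for the arrays, mean intensities lay between 53.3 and 54.6 and log2 medians spanned 0.07. Of 10 Hodgkin line markers 9 passed the filter, with summed intensities of 1922 to 2024 on the 4 arrays. Within that list the intensity-trend fit called FSCN1 lower (-0.32, adjusted p = 0.0162) and CD70 higher (0.32, adjusted p = 0.0320). Of the listed markers on the array, 1 of 8 T and NK cell markers passed, as did 3 of 7 monocyte markers, 2 of 6 plasma cell markers and 6 of 9 fibroblast and epithelial markers. CD3D, the T cell marker that passed, read 194 and 183 against 253 and 225 and was called higher in the intensity-trend fit (0.32, adjusted p = 0.0499). Summed signal was 228 and 216 against 298 and 262 for the T and NK cell list, 126 to 142 for the monocyte list and 47.7 to 60.6 for the plasma cell list over the 4 arrays. Summed fibroblast and epithelial signal was 165 and 193 in control cells against 144 and 137 in knockdown cells, with COL1A2 called lower in the intensity-trend fit (-0.47, adjusted p = 0.0405). The common-prior fit called none of these markers (adjusted p = 0.276 for FSCN1, 0.275 for CD70, 0.288 for CD3D and 0.252 for COL1A2). The part of these genes in the member values was not tested.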

How the data were processed

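Transcripts were measured on single-colour Affymetrix arrays, 2 control and 2 knockdown. Per the labels' protocols, biotinylated cRNA was made by the 1-cycle method. The authors deposited linear probe set intensities for 54613 probe sets, and their summarisation and scaling are not given in the sources used. The number of arrays limits the precision. Values of 1 or less mark a floor (971 to 1082 per array). Platform annotation gave 1 gene for 41091 probe sets, and 41037 matched GRCh38.p14 by gene number.

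Intensities were taken as log2(intensity + 16) without centring. Each gene was read at its brightest probe set, and those with a mean under the median of all probe set means (4.60, an intensity of 8.26) were left out. Groups were compared with limma 3.58.1 (R 4.3.3) by lmFit and eBayes, with and without an intensity trend, after a check on simulated data. Members and lists were chosen with earlier results of these data known. All 38 members are named, with listed genes past either fit or else the 2 with the largest fold change. For marker lists the summed signal is given. Alternatives were filters, normalization, probe set choice, pseudocounts of 1 and 64, a replicate block and leaving out each array.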

Additional observations from a re-analysis of the deposited data

How the results depend on the processing

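With 2 arrays per group, every call of a member depended on the variance model. The number of genes called by limma's common-prior fit was 2, and it became 387 with the intensity trend, 97 with a stricter filter (a mean of at least 6), 1 with the mean of probe sets, 0 with a pseudocount of 1 and 406 with a pseudocount of 64. It ranged from 1 to 6 with single arrays left out. That fit called 0 members, 3 with the intensity trend, and 2 (ATF4 and ASNS) with a pseudocount of 64, and 0 with any single array left out. The intensity-trend fit called 387 genes, against 2 with the common prior, 83 with no filter, 612 with median centring, 23 with the mean of probe sets and 142 to 377 with single arrays left out. It called 3 members, against 0 with the common prior, 1 with no filter (ATF4), 0 with the mean of probe sets and 1 to 3 with single arrays left out. With the replicate block it called 1010 genes and 6 members, adding PSAT1, TRIB3 and ERN1. The labels do not say whether the replicate numbers pair the samples. Deviations of same-numbered arrays correlated at -0.01 across genes, a value that cannot decide whether cultures were paired.

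The ATF4 branch median of -0.08 ranged from -0.21 to 0.011 with single arrays left out, and was -0.02 with median centring and -0.14 with a pseudocount of 1. The chaperone median of 0.06 became 0.025 with quantile normalization and 0.11 with median centring, and ranged from 0.024 to 0.092 with single arrays left out. Over 14 alternatives each, ATF4 was called in 11, ASNS in 8 and HSPA5 in 7, with their signs kept in all. No member called in the main or an alternative setting reversed. The causes were not tested.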
